A study of Caenorhabditis elegans with 29 samples.

Results

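Gonads of pgl-1 mutants were set directly against gonads of glh-1 mutants, using 5 of the 29 RNA-seq libraries of a series on P granules in the nematode Caenorhabditis elegans. The members were chosen from the labels: the 3 libraries of Day 1 adults labelled pgl-1(ct131) and the 2 libraries of Day 1 adults labelled glh-1(gk100), with the 3 Day 1 wild-type libraries beside them. All 3 groups were gonads dissected from animals at 24 °C, and how many gonads went into each mutant library was not found in the labels. The pgl-1 animals also carried him-3(e1147) on the same chromosome, IV, so effects of the 2 alleles cannot be told apart. The glh-1 animals carried gk100 on chromosome I, and the wild-type animals carried neither. The labels do not say whether libraries of a group came from separate cultures, so p-values measure the spread between these libraries.

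P granules are condensates of RNA and protein at the nuclear pores of C. elegans germ cells. PGL-1 is an RNA-binding scaffold protein of these granules, and GLH-1 is a helicase of the Vasa family that helps to hold the scaffold at the nucleus. Argonaute proteins and other parts of the small RNA machinery gather there, and loss of P granules is known for germ cells that become sterile and switch on genes of sperm and of somatic tissues. HIM-3 is a component of the axis of meiotic chromosomes.

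The deposited table gives 1 average per gene and group, and whole reads of each library were recovered from it. The libraries are called a, b and c within a group, in order of falling depth. Gene reads numbered 4416849, 2866889 and 1697197 in the pgl-1 libraries, 3980657 and 1416931 in the glh-1 libraries, and 1158248 to 4303736 in wild type. Levels are normalised reads, which are gene reads scaled to each library with the authors' factors. They depend on the length of the gene, so levels are compared between libraries and not between genes. At an even depth of 1158248 reads, 13120 to 14281 genes would have a read in the pgl-1 libraries, 11740 and 13213 in the glh-1 libraries and 9716 to 10057 in wild type. All 10 germ-line marker genes had reads in all 3 groups.

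Few genes passed the test between the 2 mutants. Of 15189 genes tested, 31 were higher in pgl-1 gonads (0.204%) and 16 were lower (0.105%) at an adjusted p under 0.05, by limma voom with Benjamini-Hochberg adjustment over all genes tested. The library values of all 47 did not overlap between the mutants, as was so for 26.8% of the genes tested. At an unadjusted p under 0.05 there were 1853 genes, 1304 of them higher and 549 lower in pgl-1 gonads. With a mean over the 3 groups of at least 100 normalised reads, 4335 genes were measured well, with a median standard error of 0.22 on the log2 scale. For 85.4% of these the 95% interval of the log2 ratio lay within -1 and 1, so a change of that size between the mutants is outside the interval for most well-expressed genes. Among all genes the median standard error was 0.64, and smaller ratios of weak genes were not detectable at this depth.

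**Figure D1:**
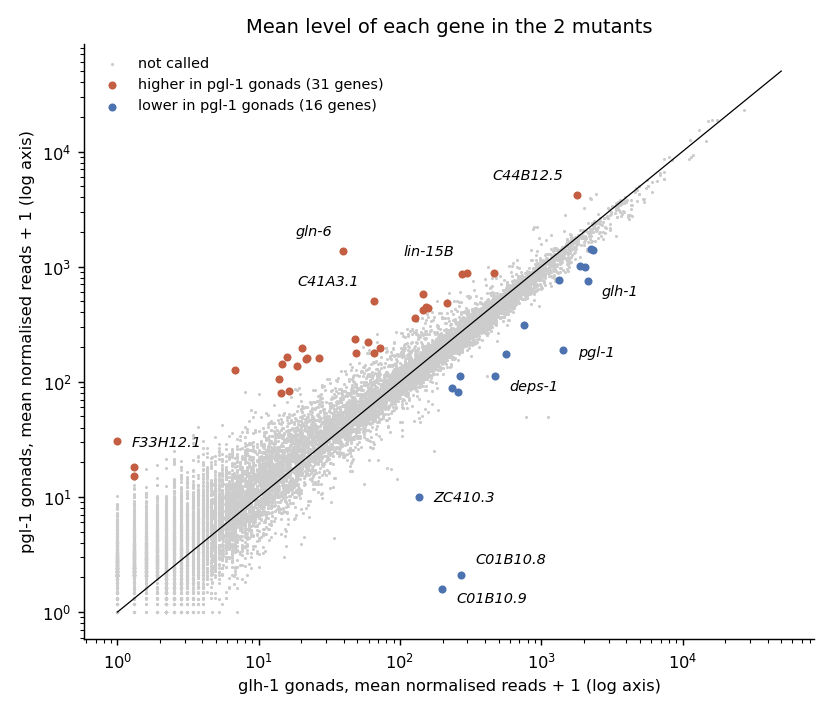
Mean normalised reads of each tested gene, plus 1, in pgl-1 gonads (vertical, log axis) against glh-1 gonads (horizontal, log axis). The 31 genes higher in pgl-1 gonads (red) lie above the line of equal levels, the 16 lower ones (blue) lie below it, and most genes lie along it.

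The split of the 47 genes depended on the scaling. With upper-quartile scaling 87 genes were higher and 10 lower in pgl-1 gonads, and the median log2 ratio of all genes moved by 0.16, to 0.31 against 0.15 with the authors' factors. It also depended on single libraries, above all on library a of the glh-1 group. Without glh-1 library a, 1 gene (gln-6) was higher and 13 were lower, and the remaining glh-1 library is then assumed to vary as the other groups do. Of the 47 genes, 6 still passed without glh-1 library a and 28 without glh-1 library b. Without pgl-1 library a, b or c, 30, 24 and 47 of them still passed, and without wild-type library a, b or c, 34, 46 and 36. Without pgl-1 library c there were 152 higher and 40 lower genes. The genes gln-6, deps-1, pgl-1, ZC410.3, C01B10.8 and C01B10.9 passed in all 16 refits with other settings or with 1 library left out, and the direction of 0 of the 47 turned in these refits.

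The mutated genes differed in what their transcripts showed. The pgl-1 gene itself had 131, 122 and 308 normalised reads in pgl-1 gonads, against 1486 and 1385 in glh-1 gonads and 1803, 2339 and 1113 in wild type. The pgl-1 libraries were all below the others, with a log2 ratio to glh-1 gonads of -3.20 ± 0.32 (SE, adjusted p 0.000243 by limma voom). The level of the mutated gene set the pgl-1 libraries apart from both other groups.

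The glh-1 gene behaved otherwise. It had 571, 744 and 928 normalised reads in pgl-1 gonads, 1942 and 2311 in glh-1 gonads, and 1104, 2218 and 954 in wild type. Both glh-1 libraries carried the mutated transcript within or just above the wild-type range, while the pgl-1 libraries were below all wild-type libraries. The log2 ratio of pgl-1 to glh-1 gonads was -1.56 ± 0.27 (SE, adjusted p 0.0209 by limma voom). Gene-level reads do not show which part of a transcript is present, so the level of glh-1 says nothing on whether gk100 removed part of it. The call held in 9 of 16 refits. It was lost, with an adjusted p of up to 0.102, when any 1 mutant library other than pgl-1 library c was left out, with a filter at a mean of 10 normalised reads and with limma-trend.

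The him-3 transcript differed less. It had 259, 228 and 245 normalised reads in pgl-1 gonads, 354 and 267 in glh-1 gonads, and 316 to 444 in wild type. Its log2 ratio between the mutants was -0.39 ± 0.21 (SE) and did not pass the test (adjusted p 0.487 by limma voom). In the authors' deposited table him-3 was lower in pgl-1 gonads than in wild type by a log2 change of -0.61 (adjusted p 0.0144). Of the 10 neighbours of pgl-1 or him-3, 6 were tested and 0 passed, with a lowest adjusted p of 0.0994.

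The other members of the GLH family of helicases and of the PGL family did not pass between the mutants. Of the 7 members of both families, 0 were higher and 2, pgl-1 and glh-1, were lower in pgl-1 gonads. The shares over all genes tested were 0.204% higher and 0.105% lower. The median log2 ratio of the 7 was -0.61, against 0.15 for all genes tested. pgl-3, the closest relative of pgl-1 and also a granule scaffold, had 475, 556 and 619 normalised reads in pgl-1 gonads, 878 and 717 in glh-1 gonads, and 965 to 1668 in wild type. Its libraries did not overlap between the mutants, but its log2 ratio of -0.61 ± 0.22 did not pass (adjusted p 0.273 by limma voom). The log2 ratios of glh-2, glh-3 and glh-4, the other germline helicases, were -0.68, -0.32 and -0.47, and that of pgl-2 was 0.01. In the authors' deposited table pgl-3 was lower than wild type in pgl-1 gonads (log2 change -1.19, adjusted p 1.45e-05), and had a log2 change of -0.63 in glh-1 gonads (adjusted p 0.119).

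**Figure D2:**
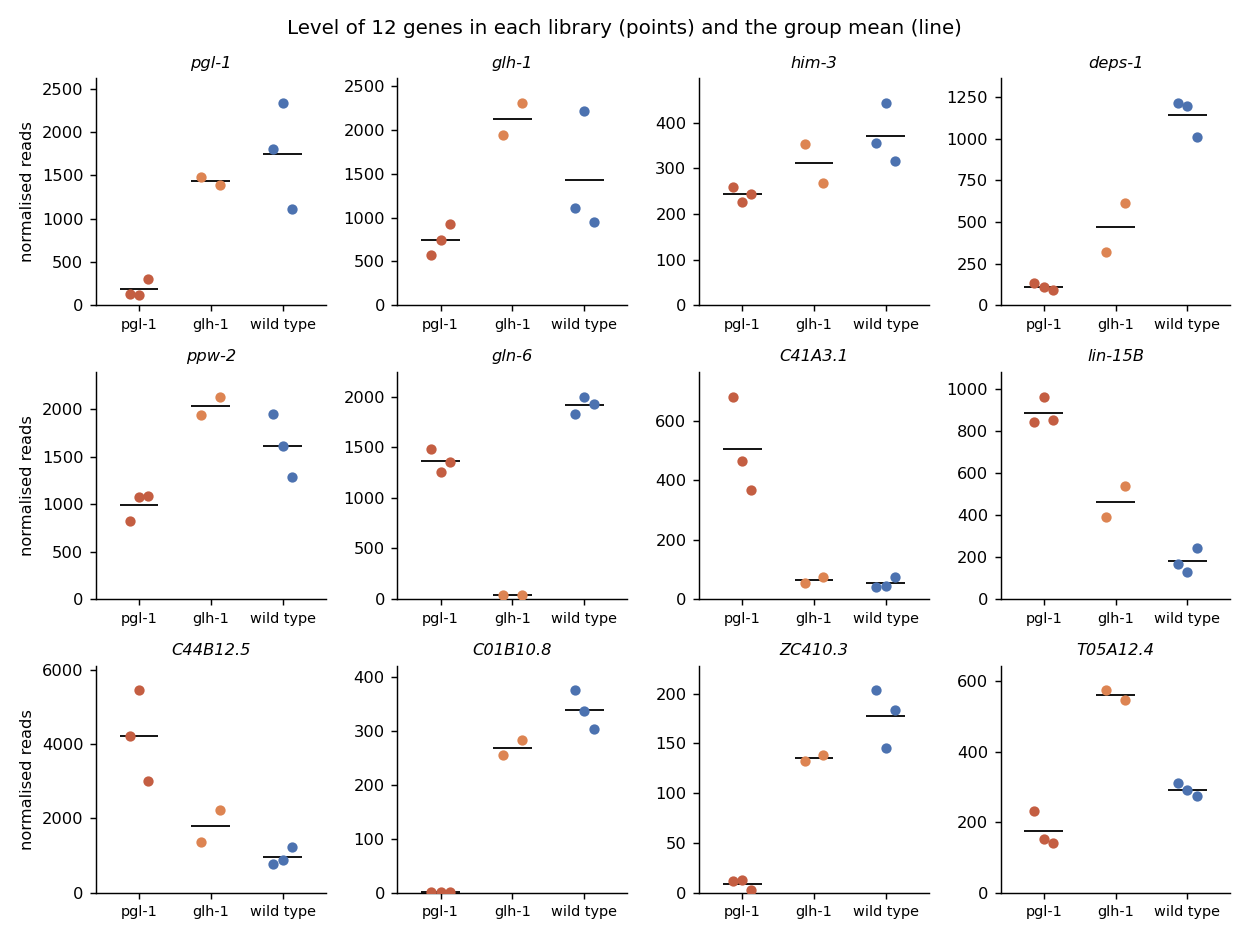
Normalised reads of 12 genes in each library (points) with the mean of each group (line), pgl-1 gonads on the left, glh-1 gonads in the middle and wild type on the right. Both mutants are below wild type for deps-1, glh-1 gonads stand apart for gln-6, and pgl-1 gonads stand apart for C01B10.8 and ZC410.3.

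Among other genes of P granules, deps-1 stood out in both mutants. DEPS-1 is a P granule protein known to be needed for normal levels of glh-1 mRNA. deps-1 had 131, 111.5 and 90.5 normalised reads in pgl-1 gonads, 322 and 615 in glh-1 gonads, and 1216, 1197 and 1010 in wild type. The 3 groups did not overlap, and pgl-1 gonads were lower than glh-1 gonads by a log2 ratio of -1.83 ± 0.28 (SE, adjusted p 0.0104 by limma voom). The authors' deposited table gives log2 changes against wild type of -3.31 in pgl-1 gonads (adjusted p 3.24e-54) and -1.22 in glh-1 gonads (adjusted p 0.000801). Both comparisons use the same wild-type libraries.

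Of the 22 tested genes listed for P granule assembly and for nanos, deps-1 was the 1 that passed, as lower, and 0 were higher. The shares over all genes tested were 0.105% lower and 0.204% higher. The median log2 ratio of the 22 was -0.07, which turned to 0.09 with upper-quartile scaling and lay below the median of all genes with both scalings. ZK1067.2, now named znfx-1 and a helicase of the neighbouring Z granules, had 987, 1248 and 1246 normalised reads in pgl-1 gonads against 1717 and 1767 in glh-1 gonads, without passing (log2 ratio -0.62, adjusted p 0.118 by limma voom). cgh-1, an RNA helicase that protects stored mRNAs, had 3438, 3142 and 5115 normalised reads in pgl-1 gonads, 4848 and 5679 in glh-1 gonads, and 8239 to 11825 in wild type. Its mutant libraries overlapped one another and lay below all wild-type libraries. These 2 genes were picked after their values were seen.

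Negative log2 ratios of pgl-1 to glh-1 gonads were common among germline genes and well-expressed genes at large. Of 2119 tested genes in the authors' germline-enriched category 1470 had one, with a median of -0.14 that turned to 0.05 with upper-quartile scaling. Of the 2119, 1 passed as higher and 10 as lower, against 0.204% and 0.105% of all genes tested. A negative ratio was found for 64.4% of genes with a mean of at least 100 normalised reads and for 40.6% of all genes tested. Among the germline Argonautes, the proteins that carry small RNAs to their targets, 12 of 18 tested had a negative log2 ratio, a share near that of germline-enriched genes. Of the 18, 1, ppw-2, passed as lower and 0 as higher, with a median log2 ratio of -0.38. ppw-2 had 817, 1074 and 1082 normalised reads in pgl-1 gonads, 1940 and 2134 in glh-1 gonads, and 1954, 1610 and 1285 in wild type. Its pgl-1 libraries were below all others, with a log2 ratio of -1.07 ± 0.17 (SE, adjusted p 0.016 by limma voom). The call held in 9 of 16 refits, with an adjusted p of up to 0.34.

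Several other Argonaute genes had separate library values in the 2 mutants without passing, and 3 are named here after their values were seen. Of all genes tested, 26.8% had library values that did not overlap between the mutants. Of the 18 Argonautes, 6 had a positive log2 ratio. C16C10.3, now hrde-1 and the nuclear Argonaute of heritable silencing, had 1892, 2260 and 3654 normalised reads in pgl-1 gonads against 4294 and 4017 in glh-1 gonads (adjusted p 0.0888 by limma voom). R06C7.1, now wago-1, had 1902, 1984 and 2314 in pgl-1 gonads against 3064 and 3040 in glh-1 gonads (adjusted p 0.0647 by limma voom). prg-1, the Piwi protein that binds piRNAs, had 1292, 1618 and 1387 in pgl-1 gonads against 2226 and 2020 in glh-1 gonads (adjusted p 0.113 by limma voom). All 3 genes were lower in each pgl-1 library than in either glh-1 library.

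Of 37 tested enzymes and scaffolds that make and amplify small RNAs, 0 passed by limma voom. At an unadjusted p under 0.05 there were 11, against 1853 of all 15189 genes tested, and limma-trend also called 0. The log2 ratio was negative for 31 of the 37, with a median of -0.26. ego-1, an RNA-directed RNA polymerase of the germ line, had 627, 549 and 696 normalised reads in pgl-1 gonads, 942 and 930 in glh-1 gonads, and 1030 to 1246 in wild type. dcr-1, the Dicer nuclease, had 607, 558 and 662 in pgl-1 gonads, 904 and 868 in glh-1 gonads, and 873 to 977 in wild type. For both, the glh-1 libraries lay in or near the wild-type range and the pgl-1 libraries below it, with log2 ratios of -0.60 and -0.56 between the mutants. In the authors' deposited table, lower levels than in wild type were called for 18 of the 37 in pgl-1 gonads, against 8.84% of all genes, and for 2 in glh-1 gonads, against 2.47% of all genes. The 2 comparisons share wild-type libraries and differ in the number of mutant libraries, so their counts are given side by side and not compared.

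Meiotic genes also had mostly negative ratios. The log2 ratio was negative for all 19 tested genes of the chromosome axis and synaptonemal complex, which hold paired chromosomes together, with a median of -0.23. It was negative for 32 of 36 genes of meiotic recombination and pairing, with a median of -0.32. By limma voom 0 genes of either list passed, and limma-trend called 0. At an unadjusted p under 0.05 there were 3 and 5, against 1853 of all 15189 genes tested. him-17, a chromatin protein of meiotic prophase, had 482, 590 and 600 normalised reads in pgl-1 gonads, 701 and 588 in glh-1 gonads, and 660 to 893 in wild type. xnd-1, which affects the placing of crossovers, had 437, 451 and 495 in pgl-1 gonads, 633 and 646 in glh-1 gonads, and 809 to 922 in wild type. rad-50, of the recombination list, had 801, 600 and 734 in pgl-1 gonads, 1028 and 935 in glh-1 gonads, and 631 to 733 in wild type. For rad-50 the pgl-1 libraries overlapped with wild type and the glh-1 libraries lay above it. The pgl-1 animals also carried an allele of him-3, itself a gene of this axis list, and the part of that allele was not tested.

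Tested genes of the DNA damage response and of germ cell death numbered 24. Of these, 1 was lower in pgl-1 gonads and 0 were higher, against 0.105% and 0.204% of all genes tested. It was atl-1, the kinase related to human ATR that answers stalled replication. It had 714, 692 and 898 normalised reads in pgl-1 gonads, 1522 and 1150 in glh-1 gonads, and 1037 to 1300 in wild type (log2 ratio -0.87 ± 0.17, SE; adjusted p 0.045 by limma voom). The pgl-1 libraries lay below both other groups. The call held in 5 of 16 refits, with an adjusted p of up to 0.661.

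Germline chromatin regulators held calls in both directions. Of 44 tested, 1 was higher in pgl-1 gonads and 2 were lower, against 0.204% and 0.105% of all genes tested. With limma-trend 0 of the 44 passed. All 3 called genes belong to the synMuv B group, which represses germline genes in somatic cells. How many of the 44 belong to that group was not counted. lin-15B had 844, 964 and 854 normalised reads in pgl-1 gonads, 388 and 537 in glh-1 gonads, and 168, 129 and 244 in wild type. The glh-1 libraries lay between the pgl-1 libraries and wild type, and the log2 ratio between the mutants was 1.02 ± 0.20 (SE, adjusted p 0.0431 by limma voom). lin-36 had 201, 328 and 410 in pgl-1 gonads, 669 and 832 in glh-1 gonads, and 725 to 880 in wild type (log2 ratio -1.37 ± 0.24, SE; adjusted p 0.0211 by limma voom). lin-13 had 757, 941 and 1322 in pgl-1 gonads, 1999 and 1758 in glh-1 gonads, and 1634 to 2043 in wild type (log2 ratio -1.03 ± 0.19, SE; adjusted p 0.031 by limma voom). For lin-36 and lin-13 the glh-1 libraries fell within or next to the wild-type range. The calls held in 7, 9 and 6 of 16 refits for lin-15B, lin-36 and lin-13, with adjusted p-values of up to 0.571, 0.228 and 0.508.

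The gene with the clearest difference between the mutants was gln-6, which encodes a glutamine synthetase. It had 1486, 1261 and 1359 normalised reads in pgl-1 gonads, 38.6 and 38.2 in glh-1 gonads, and 1826, 2004 and 1932 in wild type. The glh-1 libraries were far below both other groups, and the averages differed 35.6-fold between the mutants (log2 ratio 5.14 ± 0.31, SE; adjusted p 7.71e-07 by limma voom). Of the 31 higher genes it is 1 of the few whose level in glh-1 gonads, and not in pgl-1 gonads, lay farther from wild type. The authors' deposited table gives a log2 change of -5.44 in glh-1 gonads (adjusted p 1.3e-111) and of -0.49 in pgl-1 gonads (adjusted p 0.00806).

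For the other higher genes the larger departure from wild type was mostly in pgl-1 gonads. The mean of pgl-1 gonads was farther from the wild-type mean than that of glh-1 gonads for 29 of the 31. All pgl-1 libraries lay beyond all wild-type libraries for 31 of the 31, against 44.9% of the genes tested, and all glh-1 libraries did so for 17, against 37.7%. The 31 were chosen for their difference between the mutants, so these counts are a description. The mean of glh-1 gonads lay between those of pgl-1 gonads and wild type for 23.

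C41A3.1, now pks-1 and encoding a polyketide synthase, had 683, 465 and 366 normalised reads in pgl-1 gonads, 53.7 and 74.6 in glh-1 gonads, and 42, 42.9 and 73.9 in wild type. The glh-1 libraries were within or next to the wild-type range, and the averages differed 7.87-fold between the mutants (adjusted p 0.00172 by limma voom). Without glh-1 library a its adjusted p was 0.102. F33H12.1 had 34.4, 25.7 and 28.3 normalised reads in pgl-1 gonads, and 0 reads in both glh-1 libraries and in all 3 wild-type libraries. Against a floor of 3 reads over the glh-1 group it was at least 21.7-fold higher in pgl-1 gonads. sri-77, a gene of the chemoreceptor family next to F33H12.1, had 19, 15 and 8.48 normalised reads in pgl-1 gonads, against 1 read in the glh-1 libraries together and 0 in wild type. That is a 35-fold ratio with a 95% counting interval of 6.06 to 1407. Y43F8C.13 had 18, 21.2 and 12.7 normalised reads in pgl-1 gonads and 1 read in the glh-1 libraries together, a 39.6-fold ratio with an interval of 6.88 to 1588. Wild type had 4.39, 8.77 and 4.48 normalised reads of Y43F8C.13, so pgl-1 libraries lay above wild type and glh-1 libraries below it. Calls held in 15, 7 and 11 of 16 refits for F33H12.1, sri-77 and Y43F8C.13. These 3 genes had few reads, and reads of the adjacent pair sri-77 and F33H12.1 cannot be told apart by strand.

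Some of the higher genes could share reads. Of the 31, 8 have no symbol in the reference annotation (F21D9.7, F33H12.6, F59H6.5, Y16E11A.2, Y46B2A.2, ZK250.9, ZK250.10 and dct-10). Over the libraries, the 8 ranged between 80.6 for dct-10 and 229 for F59H6.5 normalised reads in pgl-1 gonads, between 3.64 for F21D9.7 and 33.2 for F59H6.5 in glh-1 gonads, and between 0 for F21D9.7 and 18.2 for F59H6.5 in wild type. Another 4 form pairs that carry 1 current symbol each (clec-209 with F56A4.2, and C01B4.9 with Y19D10A.12). The labels do not say how reads were split between near-identical copies, so the number of separate loci among the 31 is uncertain.

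The other higher genes included ketn-1, which encodes the muscle protein kettin, with 206, 310 and 153 normalised reads in pgl-1 gonads, 44.1 and 72.8 in glh-1 gonads and 15.7 to 31.2 in wild type. clec-209, a C-type lectin, had 456, 536 and 334 in pgl-1 gonads, 99.6 and 204 in glh-1 gonads and 13.8 to 28.2 in wild type. The FERM-domain gene frm-5 had 188, 187 and 160 in pgl-1 gonads, 36.8 and 58.2 in glh-1 gonads and 25.1 to 49.3 in wild type. For ketn-1 and clec-209 the 3 groups did not overlap and glh-1 gonads were in between. For frm-5 the glh-1 libraries overlapped with wild type. The calls of ketn-1, clec-209 and frm-5 held in 8, 13 and 15 of 16 refits, and these 3 genes were named after their values were seen. In a dissected gonad, more cells of a type and more RNA per cell cannot be told apart.

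At the other end, 2 neighbouring genes on chromosome IV had hardly any reads in pgl-1 gonads. C01B10.8, now metl-13 and encoding a methyltransferase-like protein, had 0.998, 0.885 and 1.41 normalised reads in pgl-1 gonads, from 4 reads in all, against 255 and 282 in glh-1 gonads and 302 to 375 in wild type. C01B10.9 had 2 reads over the 3 pgl-1 libraries, against 210 and 184 normalised reads in glh-1 gonads and 195 to 256 in wild type. The ratio of C01B10.9 in pgl-1 to glh-1 gonads was 0.00256, with a 95% counting interval of 0.000309 to 0.0093. The 2 adjusted p-values by limma voom were 5.23e-06 for C01B10.8 and 2.4e-05 for C01B10.9. As neighbours in a count made without strand, they may not be independent observations.

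ZC410.3, now mans-4 and encoding an alpha-mannosidase, had 12, 12.39 and 2.83 normalised reads in pgl-1 gonads, 132 and 138 in glh-1 gonads, and 145 to 203 in wild type. Its log2 ratio between the mutants was -3.89 ± 0.48 (SE, adjusted p 0.00212 by limma voom). All 3 of these genes were thus low in pgl-1 gonads and near the wild-type range in glh-1 gonads. The pgl-1 libraries lay beyond all wild-type libraries for 16 of the 16 lower genes and the glh-1 libraries for 6 of them, against 44.9% and 37.7% of the genes tested, in a set likewise chosen for its difference.

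T05A12.4 was the 1 gene that the authors' deposited table called on opposite sides of wild type in the 2 mutants. It had 231, 151 and 141 normalised reads in pgl-1 gonads, 574 and 546 in glh-1 gonads, and 311, 290 and 275 in wild type. The 3 groups did not overlap, and the log2 ratio between the mutants was -1.65 ± 0.21 (SE, adjusted p 0.0031 by limma voom). In the authors' deposited table it was lower than wild type in pgl-1 gonads (log2 change -0.72, adjusted p 0.0148) and higher in glh-1 gonads (log2 change 0.91, adjusted p 0.000574). C46C2.2 differed in another way, with 129, 111 and 96.2 normalised reads in pgl-1 gonads, 252 and 277 in glh-1 gonads, and 22 to 38.1 in wild type. Both mutants were above wild type, and glh-1 gonads were the higher of the 2 (log2 ratio -1.18 ± 0.23, SE; adjusted p 0.0431 by limma voom). The call of T05A12.4 held in 14 of 16 refits and that of C46C2.2 in 5. By library values alone, 4 of the 47 genes lay on opposite sides of all wild-type libraries, as did 38 of the 15189 tested: T05A12.4, Y43F8C.13, tag-320 and spd-5. spd-5, a scaffold of the centrosome, had 1259, 1365 and 1616 normalised reads in pgl-1 gonads, 2351 and 2174 in glh-1 gonads, and 1831 to 2034 in wild type (log2 ratio -0.73 ± 0.13, SE; adjusted p 0.0306 by limma voom), and its call held in 5 of 16 refits.

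Oogenesis genes, which supply the egg with mRNA, yolk receptors and eggshell parts, had 1 call between the mutants. Of 40 tested, 1 was higher in pgl-1 gonads and 0 were lower, against 0.204% and 0.105% of all genes tested. The median log2 ratio of the 40 was -0.12, which turned to 0.07 with upper-quartile scaling. The higher one was C44B12.5, now perm-4, a component of the eggshell permeability barrier. It had 4210, 5449 and 2997 normalised reads in pgl-1 gonads, 1370 and 2236 in glh-1 gonads, and 780 to 1229 in wild type. The 3 groups did not overlap (log2 ratio 1.35 ± 0.23, SE; adjusted p 0.0209 by limma voom), and the call held in 11 of 16 refits. rme-2, the yolk receptor of oocytes, had 2579, 2767 and 3115 in pgl-1 gonads, 4500 and 4012 in glh-1 gonads, and 5277 to 7016 in wild type. Its groups did not overlap either, without passing between the mutants (adjusted p 0.0608 by limma voom), and it was named after its values were seen.

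The stem cell, sex determination and translational control list had 0 calls of 29 by limma voom, 5 at an unadjusted p under 0.05 and 0 by limma-trend. Of all 15189 genes tested, 1853 had an unadjusted p under 0.05. gld-1, the translational repressor of meiotic entry, had 2100, 2135 and 2847 normalised reads in pgl-1 gonads, 2488 and 2693 in glh-1 gonads, and 3916 to 4144 in wild type. The mutants overlapped and both lay below wild type. Of 74 cytosolic ribosomal protein genes tested, 0 passed by limma voom between the mutants, 2 had an unadjusted p under 0.05 and 0 passed by limma-trend. For 63 of the 74 the 95% interval of the log2 ratio lay within -1 and 1. The authors' deposited table called 55 of 74 lower than wild type in pgl-1 gonads (against 8.84% of all genes) and 24 of 73 in glh-1 gonads (against 2.47% of all genes). rpl-3 had 5252, 7559 and 7140 normalised reads in pgl-1 gonads, 6254 and 8497 in glh-1 gonads, and 10061 to 14201 in wild type.

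Lists of sperm genes had positive medians, and 0 of their genes passed by limma voom. In the spermatogenesis list 38 of 51 tested genes had a positive log2 ratio, against 9020 of all 15189, with a median of 0.79. Of the 51, 10 had an unadjusted p under 0.05, against 1853 of all 15189 genes tested, and limma-trend called 0. The 2 members with the highest levels, cpb-1 and spe-39, had negative log2 ratios of -0.77 and -0.03. In the nematode-specific peptide families of sperm 25 of 30 had a positive log2 ratio, with a median of 0.60. The major sperm proteins, the cytoskeletal proteins of nematode sperm, had a positive log2 ratio for 32 of 33 tested genes, with a median of 0.99 against 0.15 for all genes. By limma voom 0 of 33 passed, 4 had an unadjusted p under 0.05 and limma-trend called 0. msp-31 had 15.5, 81.4 and 19.8 normalised reads in pgl-1 gonads, 13.3 and 14.6 in glh-1 gonads, and 0, 0.974 and 0 in wild type. Library b of the pgl-1 group was far above the other pgl-1 libraries, and all mutant libraries were above wild type. The whole family took 0.0140%, 0.0537% and 0.0188% of gene reads in pgl-1 gonads, and 0.0123% and 0.00713% in glh-1 gonads. The labels do not say how reads were split between similar copies, so genes of this family may not be separate observations. The authors' deposited table has 32 of 32 major sperm protein genes higher than wild type in pgl-1 gonads (against 22.3% of all genes) and 6 of 24 in glh-1 gonads (against 6.68% of all genes). Of 714 tested genes in the authors' sperm category, 0 passed by limma voom, 80 had an unadjusted p under 0.05, limma-trend called 0 with a pseudocount of 1 and 1 with a pseudocount of 10, and the median log2 ratio was 0.67.

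Lists of somatic tissues had positive medians too. The median log2 ratio was 0.81 for 40 neuronal genes, 0.58 for 29 hypodermal genes, 0.49 for 36 genes of the somatic gonad and basement membrane, 0.41 for 137 cuticle collagens, 0.39 for 38 muscle genes and 0.32 for 49 intestinal genes. With upper-quartile scaling the intestinal median was 0.29, below the 0.31 of all genes tested. In none of these 6 lists did a gene pass by limma voom or limma-trend. The lists do not hold every gene of a tissue: ketn-1 and dgn-1, which passed as higher, are not members. In the same order, 7, 7, 11, 19, 5 and 4 genes had an unadjusted p under 0.05, against 1853 of all 15189 genes tested. unc-33, a neuronal protein of axon growth, had 387, 444 and 329 normalised reads in pgl-1 gonads, 234.8 and 237 in glh-1 gonads, and 215 to 335 in wild type (adjusted p 0.201 by limma voom). far-2, a fatty acid and retinol-binding protein, had 4260, 5517 and 2117 in pgl-1 gonads, 2020 and 2389 in glh-1 gonads, and 620 to 943 in wild type, where both mutants lay above all wild-type libraries. Log2 ratios were 0.72 for unc-33 and 0.84 for far-2, but -0.11 for sax-7 of the neuronal list and 0.05 for erm-1 of the intestinal list. The somatic gonad list had its highest levels in fln-1 and let-502. Their log2 ratios of -0.51 and -0.36 were negative, as for 7 of the 36 genes of that list, and did not pass. Of the authors' soma-specific category 4 of 1073 tested genes were higher in pgl-1 gonads and 0 were lower. Over all genes tested the shares were 0.204% and 0.105%. The median log2 ratio of this category was 0.52.

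**Figure D3:**
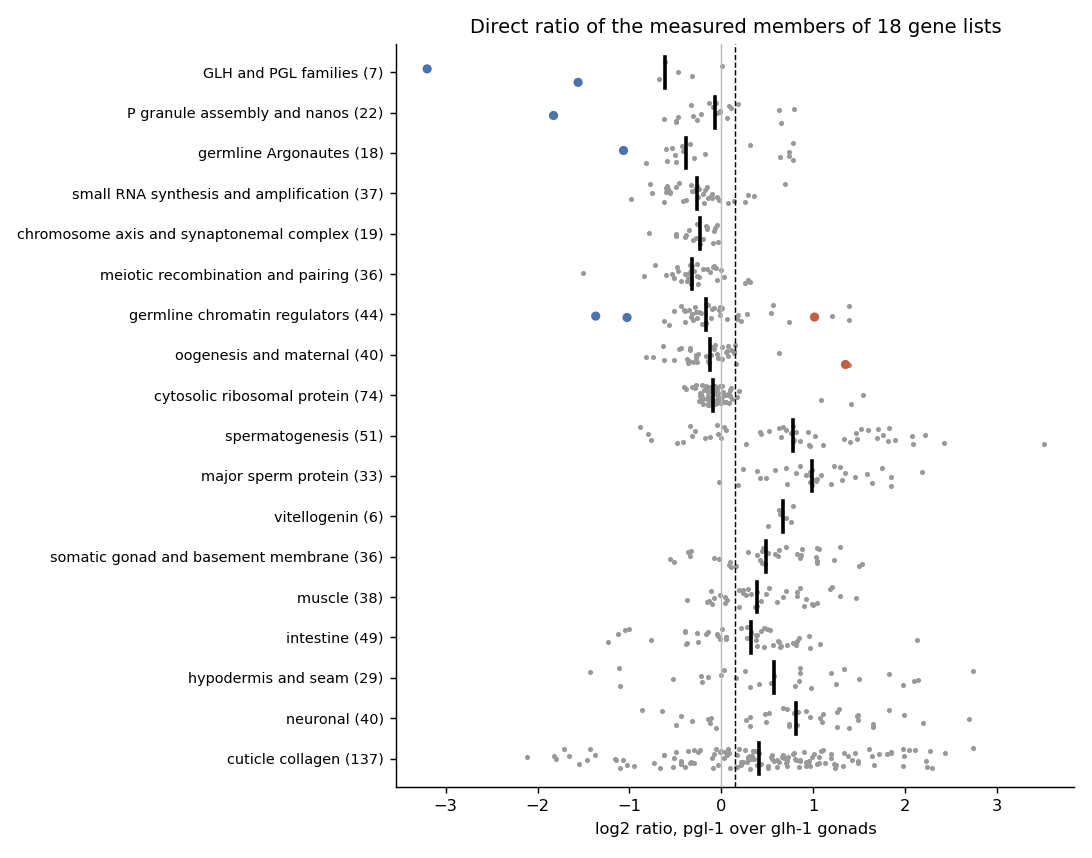
Log2 ratio of pgl-1 to glh-1 gonads for each tested gene (points) of 18 gene lists, with the number of genes in brackets. Thick bars mark list medians, the dashed line the median of all genes tested (0.15), red and blue points the genes that passed as higher and lower. Medians of small RNA and meiotic lists lie left of the dashed line, and those of sperm and somatic lists lie right of it.

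Yolk protein genes showed how far 1 library can carry a list. All 6 vitellogenin genes had a positive log2 ratio, with a median of 0.67, and 0 passed by limma voom or limma-trend. At an unadjusted p under 0.05 there was 1, against 1853 of all 15189 genes tested. vit-2 had 10573, 17745 and 18032 normalised reads in pgl-1 gonads, 4766 and 21530 in glh-1 gonads, and 3297 to 4791 in wild type. The 2 glh-1 libraries lay on both sides of the pgl-1 libraries. Vitellogenins took 2.36%, 2.99% and 3.28% of gene reads in pgl-1 gonads, 0.975% and 3.79% in glh-1 gonads, and 0.597% to 0.764% in wild type. They are made in the intestine, and the 7 intestinal markers summed to 21462 to 32075 normalised reads in pgl-1 gonads, 9736 to 39864 in glh-1 gonads and 6001 to 8177 in wild type, with elt-2 at 0 in wild type. The part of intestinal RNA in these differences was not tested.

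Shares of gene reads were compared for 37 gene sets between the 3 pgl-1 and the 2 glh-1 libraries. An exact permutation test over 10 arrangements cannot go below 0.1, and the lowest Benjamini-Hochberg adjusted p was 0.74. The mutants overlapped in 25 of the 37 sets, among them the authors' germline-enriched genes, and the lists of muscle, hypodermis and intestine. The authors' sperm category overlapped too, at 0.319%, 0.509% and 0.317% of gene reads in pgl-1 gonads and 0.323% and 0.200% in glh-1 gonads. Some of the 12 sets that did not overlap follow. The 10 germ-line markers, which include pgl-1, glh-1 and him-3, took 0.553%, 0.502% and 0.674% of gene reads in pgl-1 gonads, 0.861% and 0.832% in glh-1 gonads, and 0.919% to 1.10% in wild type. The 3 groups did not overlap. The authors' soma-specific genes took 4.99%, 4.85% and 4.63% in pgl-1 gonads, 4.55% and 4.62% in glh-1 gonads, and 3.38% to 4.09% in wild type. The 8 sperm markers summed to 94.8 to 275 normalised reads in pgl-1 gonads, 14.6 to 69.4 in glh-1 gonads and 2.24 to 3.14 in wild type, with gsp-3, ssq-1 and spe-11 at 0 in wild type. For the 6 neuronal markers the sums were 55.8 to 85.9 in pgl-1 gonads, 38.2 to 44.7 in glh-1 gonads and 7.53 to 14.6 in wild type.

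Genes on the X chromosome, most of which are kept at low levels in germ cells, differed from the autosomes between the mutants. This grouping was chosen after the values were seen and is given without a test. The median log2 ratio of pgl-1 to glh-1 gonads was 0.76 for 1746 tested X-linked coding genes and 0.08 for 11832 on the other chromosomes. It was -0.01 on I, 0.13 on II, -0.02 on III, 0.11 on IV and 0.26 on V. Of the X-linked genes 83.4% had a positive ratio, against 56.2% of the others. With a mean over the 3 groups of at least 100 normalised reads, 176 X-linked coding genes had a median of 0.69 and 4031 others had -0.10. With that level in either mutant instead, 245 X-linked genes had 0.71 and 4153 others had -0.10.

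The difference held within the authors' expression categories. Ubiquitous genes had a median log2 ratio of 0.80 on X (210 genes) and -0.02 elsewhere (1660 genes). Germline-enriched genes had 0.73 on X (50 genes) and -0.15 elsewhere (1972 genes), and germline-specific genes had 0.68 on X (15 genes) and -0.19 elsewhere (150 genes). Soma-specific genes had 0.85 on X (236 genes) and 0.40 elsewhere (816 genes). The sperm category had 0 tested X-linked coding genes and a median of 0.67 elsewhere (674 genes).

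By limma voom 7 X-linked genes were higher in pgl-1 gonads (0.401%, against 0.135% on the other chromosomes, 16 genes) and 0 were lower, with 5 lower at an unadjusted p under 0.05. With limma-trend at pseudocounts of 1 and 10, 2 and 3 X-linked genes were higher and 0 lower, and 13 and 24 on the other chromosomes were higher. The 7, named after their values were seen, were C41A3.1, tag-320, dgn-1, C17H11.2, T09B9.4, F48E3.4 and lin-15B. tag-320, now pdi-6 and encoding a protein disulfide isomerase, had 681, 681 and 376 normalised reads in pgl-1 gonads, 143 and 146 in glh-1 gonads and 155 to 226 in wild type. dgn-1, the dystroglycan of C. elegans, had 404, 428 and 233 in pgl-1 gonads, 103 and 151 in glh-1 gonads and 47.7 to 60.4 in wild type. For tag-320 the glh-1 libraries lay just below wild type, while for dgn-1 they lay between the 2 other groups. The call of tag-320 held in 15 of 16 refits and that of dgn-1 in 8.

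X-linked genes took 7.23%, 7.28% and 6.05% of gene reads in pgl-1 gonads, 3.51% and 6.08% in glh-1 gonads, and 1.48% to 2.36% in wild type. Without the vitellogenins, several of which are X-linked, the shares were 5.60%, 5.27% and 3.80% in pgl-1 gonads, 2.81% and 3.37% in glh-1 gonads, and 1.04% to 1.84% in wild type. The mutants overlapped with vitellogenins counted and did not without them. The X-linked median was 0.44 without glh-1 library a and 0.95 without pgl-1 library c. On the log2 scale with a pseudocount of 10 it was 0.25.

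**Figure D4:**
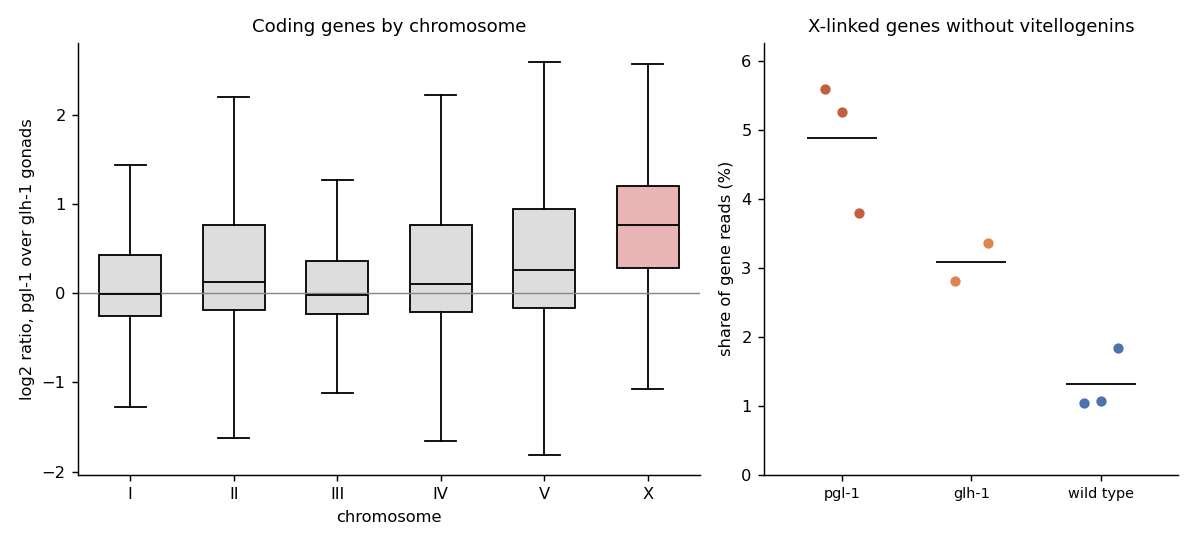
Left, log2 ratio of pgl-1 to glh-1 gonads for tested coding genes by chromosome: boxes span the quartiles, the line is the median and whiskers reach the last value within 1.5 box heights. Right, share of gene reads (%) in X-linked genes without vitellogenins in each library (points) and group means (lines); the X box is centred at 0.76, and pgl-1 libraries lie at 3.80% to 5.60%, above glh-1 at 2.81% and 3.37% and wild type at 1.04% to 1.84%.

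Against wild type, the authors' deposited table shows X-linked genes above wild type in both mutants. In pgl-1 gonads 722 of 1531 X-linked coding genes with an adjusted p were higher than wild type (47.2%) and 7 were lower, against 2162 higher (20.2%) and 1085 lower of 10726 on other chromosomes. In glh-1 gonads 166 of 1033 X-linked genes were higher (16.07%) and 5 were lower, against 469 higher (5.87%) and 205 lower of 7994 on other chromosomes. The 2 comparisons share the wild-type libraries and differ in the number of mutant libraries, so their counts are not set against each other.

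What the mutants share was described from the genes that the authors' deposited table called the same way in both. That table called 2997 of 13469 genes higher (22.3%) and 1190 lower (8.84%) in pgl-1 gonads than in wild type, and 649 of 9718 higher (6.68%) and 240 lower (2.47%) in glh-1 gonads. With a 95% interval of the direct log2 ratio within -1 and 1, 109 genes were above wild type in both mutants and 151 were below it in both. Since the wild-type libraries are common to both comparisons, the size of this overlap is no result in itself.

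puf-9, an RNA-binding protein of the Pumilio family, was among the shared higher genes. It had 1205, 1054 and 1170 normalised reads in pgl-1 gonads, 826 and 899 in glh-1 gonads, and 42.7, 40.9 and 91.8 in wild type. The log2 ratio between the mutants was 0.43 ± 0.16 (SE, adjusted p 0.296 by limma voom). F13B9.1, now sec-16A.2 and related to a scaffold of endoplasmic reticulum exit sites, had 880, 965 and 969 in pgl-1 gonads, 1074 and 924 in glh-1 gonads, and 67.1 to 233 in wild type. aldo-1, an aldolase of glycolysis, had 182, 246 and 199 in pgl-1 gonads, 211 and 433 in glh-1 gonads, and 8.96 to 11.3 in wild type. The replication-dependent histone gene his-32 had 241, 260 and 99 in pgl-1 gonads, 180 and 229 in glh-1 gonads, and 24.5 to 31.3 in wild type. In all 4 genes every mutant library lay above every wild-type library, and the mutants overlapped for the last 3.

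C34F6.9, R09F10.3, T01B11.2 and F08G5.6 completed the 8 named shared higher genes. F08G5.6, now irg-4 and known from the response to infection, had 46.4, 23 and 28.3 normalised reads in pgl-1 gonads, 24.7 and 60.04 in glh-1 gonads, and 0 to 1.26 in wild type. Direct log2 ratios of the 8 genes lay between -0.41 for aldo-1 and 0.43 for puf-9. In the authors' deposited table their log2 changes against wild type ran between 2.72 for his-32 and 4.29 for puf-9 in pgl-1 gonads, and between 2.66 for his-32 and 4.37 for aldo-1 in glh-1 gonads.

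cey-2, a Y-box protein that binds stored germline mRNAs, was among the genes below wild type in both. It had 2376, 2672 and 3209 normalised reads in pgl-1 gonads, 2973 and 2837 in glh-1 gonads, and 6788, 8211 and 6325 in wild type, with a log2 ratio of -0.13 ± 0.15 between the mutants (SE, adjusted p 0.776 by limma voom). sams-3, an S-adenosylmethionine synthetase, had 187, 155 and 239 in pgl-1 gonads, 184 and 255 in glh-1 gonads, and 573 to 656 in wild type. rps-2, a protein of the small ribosomal subunit, had 2665, 4351 and 2677 in pgl-1 gonads, 2800 and 3168 in glh-1 gonads, and 3998 to 13994 in wild type, where 1 pgl-1 library overlapped with wild type. The other 5 were Y18D10A.11, Y102A5C.6, ZK637.6, C53H9.2 and Y53C12A.11, and direct log2 ratios of the 8 lay between -0.15 for C53H9.2 and 0.31 for Y102A5C.6.

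**Figure D5:**
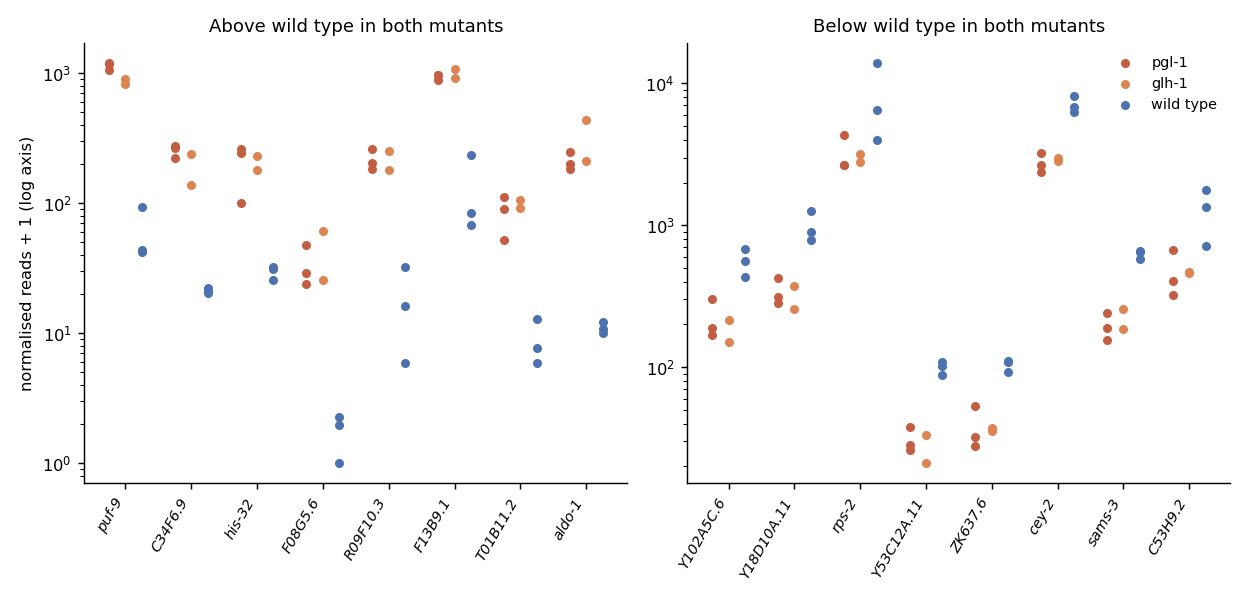
Normalised reads plus 1 (log axis) in each library for the 8 named genes above wild type in both mutants (left) and the 8 below it in both (right), with pgl-1 libraries left of glh-1 libraries and wild type last. The genes were chosen for the same call against wild type in both mutants and for a direct log2 ratio interval within -1 and 1. That the 2 mutants lie close together and apart from most wild-type points follows from this choice. For rps-2 a pgl-1 library at 4351 overlaps with wild type at 3998.

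Another set of libraries in the series shares none with the direct ratio. The authors' deposited table compares Day 1 gonads of animals given RNAi against 4 genes at once, the pair pgl-1 and pgl-3 of the PGL family and the pair glh-1 and glh-4 of the GLH family, with control RNAi. The RNAi gonads were labelled UNC-119::GFP(-), that is, without signal of this fluorescent neuronal marker. The authors' deposited table called 2505 of 12910 genes higher (19.4%) and 1340 lower (10.4%) after RNAi. Over all genes tested between the mutants, 0.204% were higher and 0.105% were lower in pgl-1 gonads. Of the 2421 RNAi-higher genes tested between the mutants, 22 were higher in pgl-1 than in glh-1 gonads and 3 were lower. Their median log2 ratio was 0.63 against 0.15 for all genes. Of the 1340 RNAi-lower genes, 1 was higher and 8 were lower, with a median of -0.16, which turned to 0.02 with upper-quartile scaling. The 8 include pgl-1 and glh-1, which were themselves targets of the RNAi. him-3, not among the 4 targets, had an authors' log2 change of -3.36 after RNAi (adjusted p 1.63e-35). For glh-2, also not a target, it was -2.97 (adjusted p 2.19e-33). The RNAi gonads thus had less him-3 RNA too, and the cause was not tested. T05A12.4, lower in pgl-1 than in glh-1 gonads, had an authors' log2 change of 0.85 after RNAi in the deposited table (adjusted p 0.00696).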

How the data were processed

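Total RNA of dissected gonads was depleted of ribosomal RNA and made into libraries for Illumina HiSeq instruments with the NEBNext Ultra RNA kit, per the labels' protocols; that kit does not mark strand. TopHat2 and DESeq2 were used, per the submitters' processing notes; versions, genome build, annotation and read counter are not stated there. The authors deposited 1 table of 45627 genes. Its signal values are group averages of gene read counts that the authors divided by a factor per library. Its log2 fold changes and adjusted p-values are the authors' own comparisons, as deposited, and its gene categories are marks of 0 or 1.

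From each average, whole reads per library were recovered for 45446 genes, because 1 read has a fixed worth in each library. The averages allowed several solutions for 7 genes in pgl-1 and 8 in wild type, settled with the deposited mean expression. The recovered reads gave back the deposited mean expression of 10272 genes (pgl-1 with wild type) and 9425 genes (glh-1 with wild type) to within a relative 1e-06. One gene read was worth 0.499, 0.885 and 1.41 normalised reads in pgl-1 libraries a, b and c, 0.604 and 1.82 in glh-1 libraries a and b, and 0.628 to 2.24 in wild type. The replicate numbers of the recovered libraries are unknown. Intervals on reads cover counting error only.

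The direct ratio was tested with limma 3.58.1 (voom) in R 4.3.3 on the 8 libraries, with the authors' factors as scaling, for genes that averaged 1 normalised read or more in any group. Benjamini-Hochberg adjustment ran over all genes tested, at 0.05. The steps were also run on simulated data, whose outcome is not given here and is no evidence for the calls. Alternatives were other scalings, filters, limma-trend with pseudocounts of 1 and 10, quality weights, the mutant libraries alone and each library left out.

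Members and gene lists were chosen with earlier results of these data known. Genes named are the mutated genes and the GLH and PGL families, the 12 highest and 12 lowest called genes with a mean of at least 10 normalised reads and no overlap, up to 4 called or else 2 top-level members of each of 25 lists, 8 shared genes per direction, and genes on opposite sides of wild type. Some genes under this rule are not described, and some outside it were named after their values were seen. Symbols and chromosomes come from a WBcel235 annotation, which matched 42420 identifiers; since the build of the table is unknown, no coordinates are given.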

Additional observations from a re-analysis of the deposited data

How the results depend on the processing

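No paired analysis was possible because the recovered libraries carry no replicate numbers. Counts of higher and lower genes, 31 and 16 in pgl-1 against glh-1 gonads, were 66 and 22 with total-read scaling, 87 and 10 with upper-quartile scaling, 101 and 80 with no filter, 25 and 9 with a filter at 10 normalised reads, 20 and 8 with limma-trend at a pseudocount of 1, and 36 and 10 at a pseudocount of 10. Leaving out 1 library gave 1 to 152 higher and 9 to 40 lower genes. The log2 ratio of glh-1 lost its call at -1.53 with the filter at 10, at -1.53 and -1.52 with limma-trend at pseudocounts of 1 and 10, and spanned -1.71 to -1.33 with 1 library left out. The ratio of deposited averages for pgl-1 with a pseudocount of 10 was -2.87. Causes were not tested; no filter tested 22003 genes and the filter at 10 tested 8646. Without glh-1 library a the majority of calls turned, with 1 higher and 13 lower, while 0 of the 47 genes changed direction in any refit. The grouping by chromosome was added after seeing the data.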

Other observations

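Of 15 lower coding genes, 7 lie on chromosome IV, which carries both pgl-1(ct131) and him-3(e1147). The 7, with pgl-1 among them, make up 0.302% of the 2321 tested coding genes of IV, and the other 8 make up 0.0711% of the 11257 tested elsewhere. Besides pgl-1 itself, T05A12.4 lies 17 genes away from pgl-1 in the order of the annotation, C01B10.8 lies 50 and C01B10.9 lies 51 genes away, all on one side. On the other side ZC410.3 lies 469, C46C2.2 lies 494 and R11A8.1 lies 784 genes away, and gln-6, higher in pgl-1 than in glh-1 gonads, lies 616 genes away. The higher genes C44B12.5, frm-5 and Y38C1AB.4 lie 973 to 1152 genes away. This grouping was made after the values were seen and was not tested, and the labels do not say how the strains were crossed.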
